A study of Mus musculus with 18 samples.

Results

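Liver transcriptomes of 3 rAAV8-treated and 3 untreated Lipa-/- mice, taken 12-weeks post-injection, were compared gene by gene. These 6 libraries are all the treated and untreated Lipa-/- mice that the labels place at 3 months, out of 18 libraries in the series, and they were picked by label alone. Of the 35441 genes in the deposited count table, the 14533 with more than 100 reads summed over the 18 libraries were tested. The other libraries are WT mice of the same age and all 3 kinds of mice at 34-weeks (8 months in the labels), with 3 mice in each group.

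Both groups were male mice on a C57/BL6N background in which exon 4 of Lipa had been deleted by a Cre driven by the CMV promoter, so the deletion is not limited to one cell type. The treated mice (KO treated, mice 10, 11 and 12) received rAAV8.hAAT.LIPA into a tail vein at 10 to 12 weeks of age. The vector holds a human LIPA cDNA with an HA tag behind the hAAT promoter, which restricts transcription to hepatocytes. The untreated mice (KO untreated, mice 8, 9 and 5) are labelled as having received no treatment, so an effect of the vector itself and an effect of the enzyme cannot be told apart. The design asks which parts of the liver transcriptome of the knockout had moved, and how far, 12-weeks after the injection. Values per mouse are given below in the order 8, 9 and 5 for untreated and 10, 11 and 12 for treated mice.

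Lysosomal acid lipase, the product of Lipa, splits cholesteryl esters and triglycerides that reach the lysosome with lipoproteins. Without it these lipids stay in the lysosomes of hepatocytes and of macrophages, and free cholesterol and fatty acids do not leave them. Lysosomal enzymes are partly secreted and can be taken up by neighbouring cells through mannose 6-phosphate receptors, so macrophages can receive an enzyme that only hepatocytes make.

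The 6 libraries held between 17527824 and 24244535 reads assigned to genes. Expression is given as CPM, a count per 1000000 reads of the library after correction by its TMM factor, and 3 reads, the most that a gene with no read could plausibly hold, were worth 0.106 to 0.291 CPM. The TMM factors were 0.587 to 0.759 in treated and 1.165 to 1.229 in untreated mice and did not overlap. Major urinary protein (Mup) genes held 9.11% to 25% of the reads of the treated and 0.0499% to 0.216% of those of the untreated mice. Transcripts of the mitochondrial genome held 1.53% to 3.38% of the reads in treated, 2.67% to 6.82% in untreated and 4.63% to 7.19% in WT mice. The library name of untreated mouse 5 begins with another code (23-004) than those of the other 8 mice of 12-weeks (22-132). The labels do not say what these codes stand for, and many of the results that change without untreated mouse 5 are named below. The mice are described as male, and the Y-linked genes Ddx3y and Eif2s3y held at least 961 and 633 reads in 17 of the 18 libraries. The library labelled untreated mouse 4 of 34-weeks had no read of either, so it goes against that description, and the results that use the 34-weeks mice are also given without it. Albumin (Alb), the main hepatocyte transcript, was at 22500, 38600 and 18400 CPM in untreated and at 32000, 65000 and 41200 CPM in treated mice, which overlap (it was called higher without untreated mouse 9, with a log2 fold change of 1.17 and adjusted p = 0.0479).

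The treated libraries also differed from all others of 12-weeks in how level moved with transcript length and base composition. Among genes whose mean over the 6 mice reached 1 CPM, the median log2 fold change between treated and untreated mice was 0.65 in the quintile with the shortest transcripts and -0.49 in that with the longest. By GC content it was 0.5 in the lowest quintile and -0.9 in the highest. Against WT mice the median by GC content went from 0.42 to -0.34 in treated mice and the other way in untreated mice, from -0.25 to 0.23. In the 34-weeks comparison it went from 0.23 to -0.11 (0.21 to -0.12 without untreated mouse 4). By length the treated mice went against WT mice from 0.84 in the shortest to -0.39 in the longest quintile, and the untreated mice only from 0.02 to -0.08. At 34-weeks the comparison by length went from 0.18 to -0.01 (0.12 to 0.03 without that mouse). The shift between short and long genes, measured in each mouse against the WT mean, was 1.41, 1.07 and 1.13 in treated mice and 0.06, 0.49 and -0.24 in untreated mice. Treatment and this trend cannot be told apart in these 6 libraries. For each gene group below, the count of called members in a fit in which the trend of every mouse with length and GC content had been removed is therefore given beside the main one. A real change that runs with length or GC content is removed with it.

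**Figure D1:**
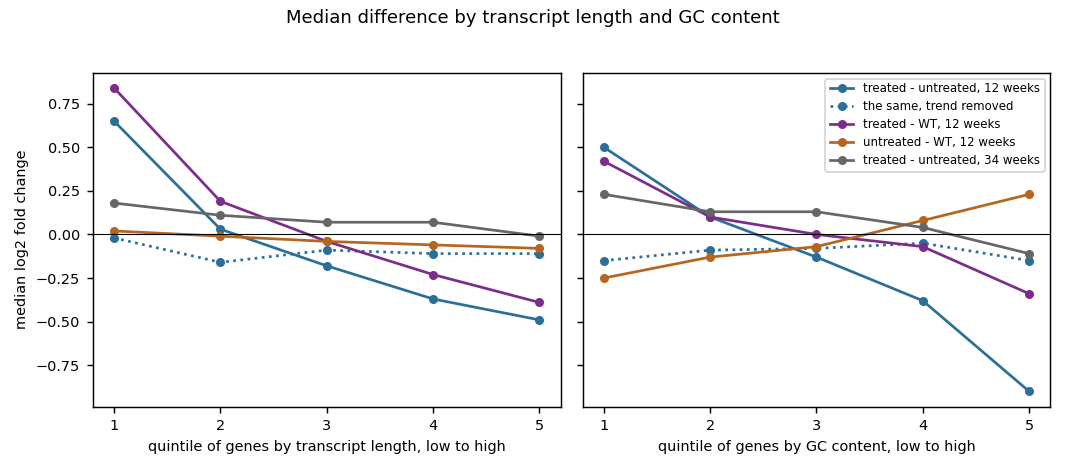
Median log2 fold change (vertical axis) of the genes of each quintile by transcript length (left) and by GC content (right), for genes whose mean over the 6 mice reached 1 CPM. The treated mice of 12-weeks fall from 0.65 to -0.49 with length against untreated mice and from 0.84 to -0.39 against WT mice, while untreated against WT mice and the 34-weeks comparison stay between -0.08 and 0.18 with length. The dotted line is the fit with the trend removed.

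The transgene and the deleted gene were examined first. Human LIPA (hLIPA), which the table lists beside the mouse genes, was at 1580, 907 and 2630 CPM in treated mice and had no read in the untreated mice. Set against 3 reads per mouse, this is at least 14900-fold higher (adjusted p = 1.5e-05, edgeR's quasi-likelihood test). Murine Lipa was at 33.4, 24.3 and 16.7 CPM in untreated and at 32.6, 31 and 37 CPM in treated mice, against a mean of 237 CPM in WT mice. The groups overlapped and the difference did not pass the test (log2 fold change 0.44, SE 0.21, adjusted p = 0.0864). Both genes thus went with the labels of all 6 mice.

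Of the 14533 genes, 6027 (41.5%) were called, which required an absolute log2 fold change over 1 and a Benjamini-Hochberg adjusted p under 0.05 in edgeR's quasi-likelihood test. Treated mice were higher in 2348 genes (16.2%) and lower in 3679 (25.3%), and the median log2 fold change over all genes tested was -0.19. In 8623 genes (59.3%) the values of the 3 treated and the 3 untreated mice did not overlap. The smallest p that an exact permutation test can give with 3 mice against 3 is 0.1, which is why single genes are judged by the model alone. The split between directions depended on the scaling. With total counts in place of TMM factors 679 genes were called higher and 6933 lower, and the median of all genes moved from -0.19 to -1.05. Directions below are therefore relative to the TMM scale. Counts and medians of gene groups given below for total counts are to be read against these 679 and 6933 of 14533 genes and the median of -1.05. With the length and GC trend removed, 1825 genes (12.6%) were called higher and 3170 (21.8%) lower. Of the 6027 genes, 3928 (65.2%) were called in the same direction there, and 1 in the opposite one.

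The largest increases outside hLIPA were in Mup genes and in Hsd3b5, a male-specific steroid dehydrogenase of the liver. Mup9 was at 0, 0 and 0.142 CPM in untreated and at 15000, 265 and 5830 CPM in treated mice (log2 fold change 16.94, SE 1.94, adjusted p = 6.8e-06). The untreated mean of Mup9, 0.0473 CPM, was under the worth of 3 reads in these mice (0.106 to 0.121 CPM). With each mouse left out in turn its log2 fold change ranged from 15.7 to 20.24, so the size of the increase is uncertain. Hsd3b5 was at 0, 0.0808 and 0.142 CPM and at 595, 283 and 651 CPM, with a WT mean of 417 CPM. Of the 8 genes that the naming rule takes in this direction the other 5 were Mup2, Mup12, Mup15, Mup17 and Mup19. Treated mouse 11 was the lowest of the treated mice in all 6 Mup genes, with 71.8 CPM of Mup12 against 1820 and 1870 CPM in the other two. These genes are nearly identical copies that share reads, and the level of each single copy is uncertain.

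The largest decreases were mixed in function. Lcn2 (lipocalin 2, an iron-carrier protein of neutrophils and of stressed hepatocytes) was at 1800, 1110 and 2880 CPM in untreated and at 10.3, 5.76 and 4.06 CPM in treated mice (log2 fold change -8.18, SE 1.27, adjusted p = 8.8e-05). Chil1, a chitinase-like protein of activated macrophages, was at 38.3, 15.9 and 144 CPM and fell to 0.0972, 0.38 and 0.383 CPM. The lowest untreated mouse thus held far more of both genes than any treated mouse. Ngp and Ltf, which encode neutrophil granule proteins, were called lower as well, but untreated mouse 9 held most of their reads (Ngp 18, 259 and 23.4 CPM, Ltf 7.92, 103 and 14 CPM), and Ngp lost its call without that mouse (log2 fold change -4.89, adjusted p = 0.0504). Sult1e1, an oestrogen sulfotransferase, was at 24.5, 24.4 and 95.7 CPM and at 2.04, 0.0543 and 0.537 CPM. The female-biased transcript Slc22a26 and the predicted gene Gm5641 were also among the 8 strongest, and Gm5641 was at 89.1, 81.5 and 65.5 CPM in untreated and at 0, 0 and 3.14 CPM in treated mice. Unlike the others, Gm5641 was as high in WT mice (84.3 CPM) as in untreated mice.

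**Figure D2:**
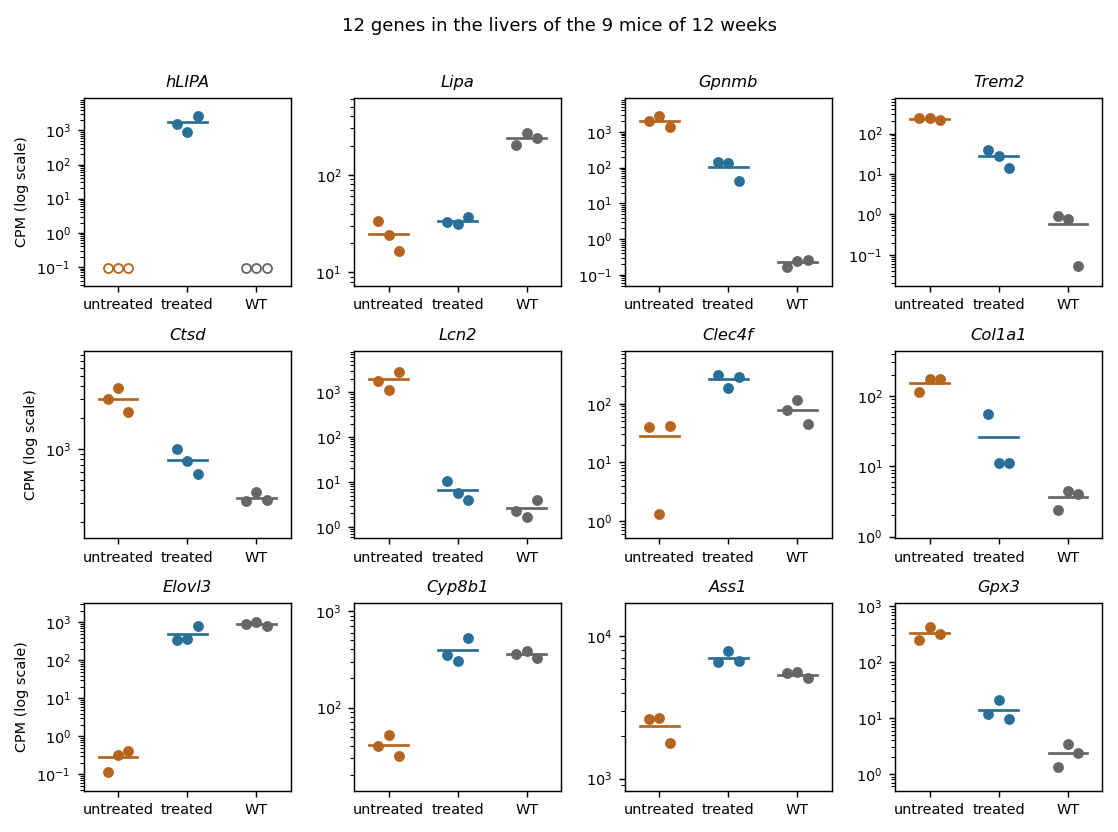
CPM on a log scale (vertical axis) of 12 genes in each of the 9 mice of 12-weeks: untreated Lipa-/- in brown (mice 8, 9 and 5 from left to right), treated Lipa-/- in blue (mice 10, 11 and 12) and WT in grey. Points are mice, bars are group means, and open points at the lower edge had no read. Treated and untreated mice do not overlap in any panel but that of Lipa, and the treated mice stay above WT for Gpnmb (42.1 to 146 CPM).

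Genes of lipid-associated macrophages, the cells that gather around stored lipid, were lower as a group. Of 18 members tested, 16 were called lower and 0 higher, against 25.3% and 16.2% of all genes, with a median log2 fold change of -3.49. The count was also 16 with the length and GC trend removed (median -3.55). Gpnmb, a glycoprotein of lipid-loaded macrophages, was at 1990, 2700 and 1340 CPM in untreated and at 146, 131 and 42.1 CPM in treated mice (log2 fold change -4.24, SE 0.71, adjusted p = 0.000162). Trem2, their lipid-sensing receptor, was at 237, 247 and 219 CPM and at 39.8, 28 and 13.8 CPM. Spp1 (osteopontin) was at 583, 2210 and 397 CPM and at 53.8, 52.4 and 45.5 CPM, the lowest value of the list (log2 fold change -4.39). All 3 treated mice lay under all 3 untreated mice for these genes. The treated level was still above WT, where Gpnmb had a mean of 0.221 and Trem2 of 0.576 CPM, and 15 of the 18 members were called higher in treated than in WT mice, against 13.6% of all genes called higher and 12% called lower in that comparison. In whole liver, fewer cells of a type and less RNA per cell cannot be told apart.

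Of 15 genes of resident Kupffer cells 3 were called higher and 3 lower, near the 16.2% and 25.3% of all genes, and the counts were also 3 and 3 with the trend removed. Their median log2 fold change was 0.92 (0.29 with the trend removed and 0.02 with total counts). Clec4f, a lectin made only by resident Kupffer cells, was at 39.8, 1.33 and 42.4 CPM in untreated and at 306, 188 and 286 CPM in treated mice (log2 fold change 3.22, SE 1.09, adjusted p = 0.02). Timd4, a receptor of long-lived Kupffer cells, was at 0.388, 0 and 0.426 CPM and at 3.5, 1.79 and 3.22 CPM, near its WT mean of 3.45 CPM. The scavenger receptor Marco went the other way, from 64.4, 1.29 and 46.6 CPM to 2.62, 3.75 and 0.613 CPM. Untreated mouse 9 was far below the other two untreated mice for both Clec4f and Marco, and for Marco it overlapped the treated mice. The call of Marco was lost without treated mouse 10 or 12 or untreated mouse 8 (adjusted p = 0.0592 to 0.0711).

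Among monocyte and inflammatory genes 12 of 15 were called lower and 0 higher, against 25.3% and 16.2% of all genes (median log2 fold change -2.88). With the trend removed 14 were called lower. Ccr2, the receptor that brings monocytes into tissue, was at 8.74, 30.8 and 9.23 CPM in untreated and at 2.33, 3.97 and 0.843 CPM in treated mice (log2 fold change -2.74, SE 0.65, adjusted p = 0.00237). Its ligand Ccl2 was at 13, 35.5 and 8.87 CPM and at 12, 3.31 and 1.69 CPM, which overlapped and did not pass the test (adjusted p = 0.0545), although it did with the trend removed (log2 fold change -3.47, adjusted p = 0.000363). Ccl2 was also called without treated mouse 10 (-2.94) or untreated mouse 5 (-2.12). Chil3, a lectin of recruited monocytes, had its largest value in untreated mouse 9, with 9.24, 119 and 11.7 CPM against 1.94, 1.96 and 0.307 CPM, and lost its call without that mouse (log2 fold change -2.89, adjusted p = 0.084).

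Neutrophil genes were lower in 12 of 15 members and higher in 0, also with the trend removed, against 25.3% and 16.2% of all genes in the main fit. The median log2 fold change of the list was -4.86, or -3.98 when the member at the detection limit in treated mice is set to its bound. S100a8 was at 42.8, 520 and 59.9 CPM in untreated and at 19.6, 17.4 and 2.38 CPM in treated mice (log2 fold change -3.98, SE 1.53, adjusted p = 0.037), and its partner S100a9 at 46.1, 542 and 60.3 CPM and at 36, 23.8 and 3.14 CPM (adjusted p = 0.0728, and 0.00993 with the trend removed). Untreated mouse 9 stood far above the other untreated mice for this pair. Without it 5 of the 15 genes were called lower, and 7, 6 and 6 without treated mouse 10, 11 or 12. S100a8 then had a log2 fold change of -1.97 (adjusted p = 0.256), and it lost its call without any of the 3 treated mice as well (adjusted p = 0.0724 to 0.107). The summed level of the list was 1970, 2950 and 3110 CPM in untreated, 21.7 to 92.3 CPM in treated and 13.9 to 17.3 CPM in WT mice. Lcn2, which stressed hepatocytes make as well, was 1800, 1110 and 2880 CPM of the untreated sums. It thus made up most of the sum in untreated mice 8 and 5, and the fall of the sum is largely that of Lcn2 there.

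Of 16 T cell and NK cell genes 1 was called higher and 1 lower, fewer than the 16.2% and 25.3% of all genes would give. With the trend removed 0 were called higher and 4 lower (median log2 fold change -0.59, against -0.23 without the removal). With total counts 0 and 6 of the 16 were, against 679 and 6933 of all 14533 genes. Their summed level was 23 to 38.5 CPM in untreated and 22.3 to 33.5 CPM in treated mice, against 4.34 to 10.6 CPM in WT mice. Cd3e, a chain of the T cell receptor complex, was at 0.971, 0.647 and 0.639 CPM and at 0.194, 0.435 and 0.537 CPM (adjusted p = 0.254). The co-receptor Cd8a was at 3.15, 3.07 and 2.02 CPM and at 2.33, 2.01 and 1.76 CPM (log2 fold change -0.43, SE 0.41, adjusted p = 0.382). The called members were the co-stimulatory receptor Cd28, from 1.67, 3.03 and 1.92 CPM to 0.389, 0.272 and 0.153 CPM, and the cytotoxic granule protease Gzma, from 1.44, 0.687 and 0.781 CPM to 6.22, 3.31 and 2.53 CPM. The call of Gzma was lost with the trend removed (log2 fold change 0.5, adjusted p = 0.532) and without treated mouse 10 or untreated mouse 9 or 5 (adjusted p = 0.0784 to 0.117). Against WT mice, 11 of the 16 members and 13.6% of all genes were called higher in treated mice.

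B cell and plasma cell genes were called higher in 3 and lower in 2 of 13 members, against 16.2% and 25.3% of all genes. The counts were 3 and 4 with the trend removed and 1 and 5 with total counts, and 5 were called higher without treated mouse 10. The inhibitory B cell receptor Cd22 was at 18.8, 7.96 and 19.1 CPM in untreated and at 2.53, 3.97 and 1.76 CPM in treated mice, whereas the B cell surface protein Ms4a1 was at 0.388, 0.202 and 0.39 CPM and at 1.46, 2.06 and 2.15 CPM. The plasma cell gene Jchain was at 54.8, 37.9 and 11.1 CPM and at 28.3, 22.8 and 6.59 CPM, which overlap, and it was called lower with the trend removed (log2 fold change -2.38, adjusted p = 0.0124). Cd79a, a chain of the B cell receptor, was at 1.4, 1.33 and 0.958 CPM and at 0.486, 4.62 and 2.61 CPM (adjusted p = 0.156, and 0.0387 without treated mouse 10). Of 8 MHC class II genes 2 were called lower and 0 higher, near the 25.3% of all genes called lower, and 3 and 0 with the trend removed. The invariant chain Cd74 was at 524, 158 and 363 CPM and at 15.9, 80.9 and 81.2 CPM (log2 fold change -2.55, SE 0.62, adjusted p = 0.00279), with no overlap, and H2-Aa, a chain of the class II molecule, was at 177, 45.3 and 103 CPM and at 45, 76.1 and 64.9 CPM (adjusted p = 0.279). H2-Aa was called lower once the trend was removed (log2 fold change -1.51, adjusted p = 0.0488).

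Interferon-stimulated genes were called higher in 1 and lower in 5 of 22 members, the latter near the 25.3% of all genes called lower, and in 0 and 4 with the trend removed. Their median log2 fold change was 0.22 (0.02 with the trend removed and -0.64 with total counts), with a summed level of 398 to 490 CPM in untreated and 504 to 629 CPM in treated mice. Isg15, a ubiquitin-like protein, was at 13.9, 16.4 and 11.2 CPM and at 28.3, 28.3 and 24.9 CPM (log2 fold change 0.97, SE 0.45, adjusted p = 0.0753), and its difference was 0.05 with the trend removed. Irf7, a regulator of interferon genes, was at 35, 40.6 and 31.7 CPM and at 32.3, 41.8 and 50.8 CPM (adjusted p = 0.663). The member called higher was Mx2, an antiviral GTPase, with 2.49, 2.14 and 1.99 CPM in untreated and 7, 3.86 and 4.29 CPM in treated mice. Its call was lost with the trend removed (0.93) and without treated mouse 10 (0.85). Without treated mouse 10 or untreated mouse 5 the number called lower was 3, and without untreated mouse 8 it was 2. Oasl2, of the oligoadenylate synthetase family, fell to 1.65, 1.03 and 1.23 CPM from 9.2, 6.95 and 7.13 CPM.

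**Figure D3:**
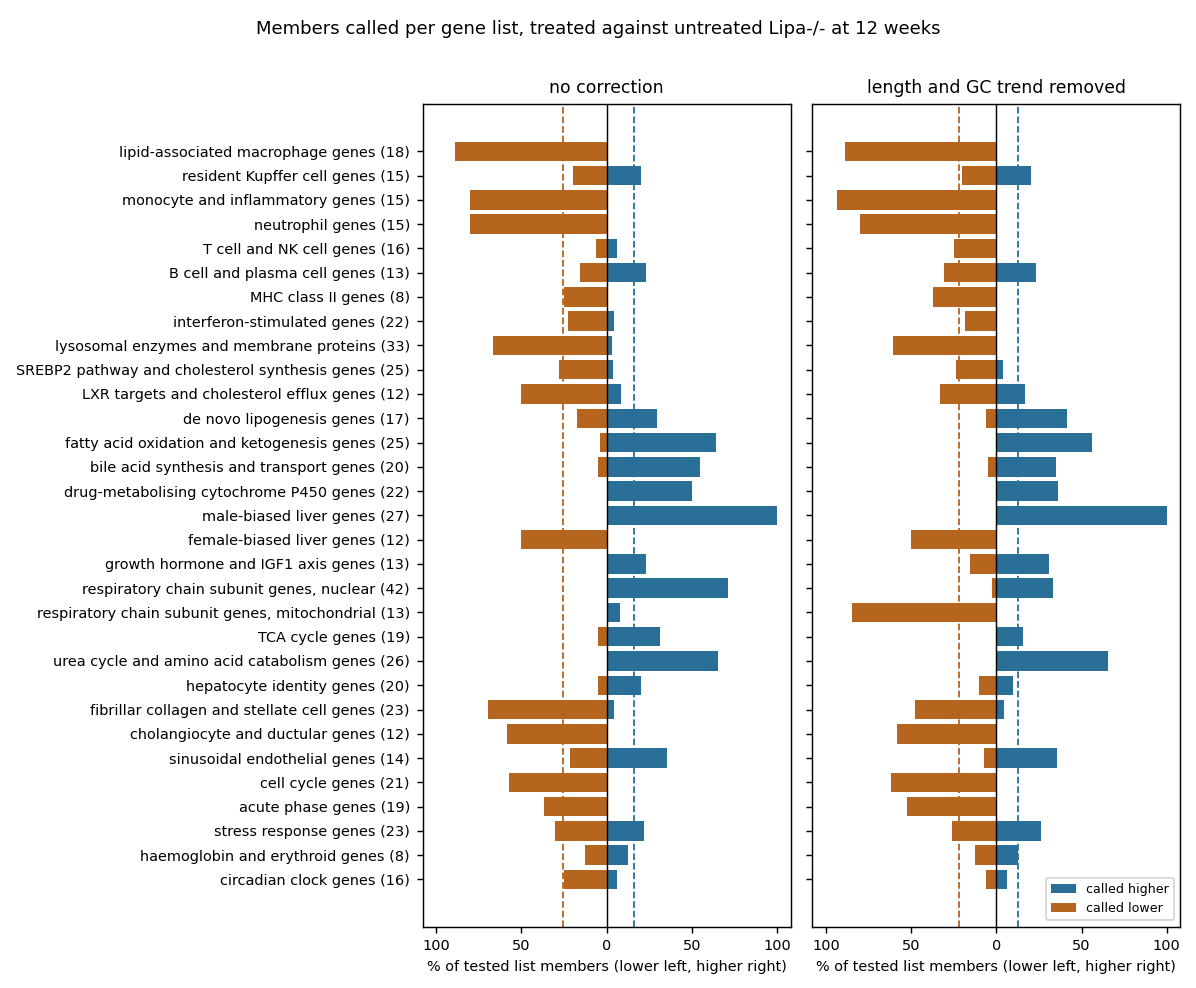
Share of the tested members of each of 31 gene lists (number tested in brackets) that was called higher (blue, to the right) or lower (brown, to the left) in treated against untreated Lipa-/- mice, without (left) and with (right) removal of the length and GC trend. Dashed lines are the shares over all genes tested (16.2% and 25.3% on the left, 12.6% and 21.8% on the right). All 27 male-biased genes are higher on both sides, while the nuclear respiratory chain genes go from 30 to 14 of 42 called higher.

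Lysosomal genes, the compartment in which the missing enzyme works, were lower in 22 of 33 members and higher in 1. Over all genes 25.3% were lower and 16.2% higher. The median log2 fold change of the list was -1.7. With the trend removed the counts were 20 and 0 (median -1.29). Ctsd (cathepsin D, an aspartic protease) was at 3040, 3890 and 2250 CPM in untreated and at 993, 763 and 576 CPM in treated mice (log2 fold change -1.98, SE 0.26, adjusted p = 2.06e-05), with a WT mean of 342 CPM. Laptm5, a lysosomal membrane protein of blood cells, was at 164, 130 and 149 CPM and at 1.94, 5 and 4.52 CPM, the largest decrease of the list (log2 fold change -5.25, SE 0.43). Lamp1, the major membrane protein of lysosomes, was at 836, 899 and 607 CPM and at 588, 606 and 655 CPM and did not pass the test (log2 fold change -0.34, adjusted p = 0.141). Lamp2, a second membrane protein of lysosomes, rose from 470, 496 and 309 CPM to 1540, 975 and 1130 CPM (log2 fold change 1.52, SE 0.25, adjusted p = 0.000161), and its difference fell under the threshold with the trend removed (0.8). The summed level of the list was 13700 to 18600 CPM in untreated, 5550 to 6090 CPM in treated and 4000 to 4650 CPM in WT mice, with no overlap between the 3 groups. Of the 33 genes 7 were called higher and 3 lower in treated than in WT mice, against 13.6% and 12% of all genes.

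Many lysosomal genes carry the CLEAR element, which is read by TFEB and its relatives, and genes of cholesterol synthesis carry sterol regulatory elements read by SREBP2. The core letters of the CLEAR element, TCACGTGA, which read the same on both strands, were found in the promoter windows of 4 of 25 lysosomal genes for which RefSeq windows of GRCm38.p6 were at hand (250 bases before to 50 after the start). Over all genes with windows they were found in 304 of 27025 (1.12%), and in 0.974% of all 32851 windows. The 4 lysosomal genes were Ctsd, Ctsa, Gla and Mcoln1, and 3 of them were called lower (2, Ctsd and Gla, with the trend removed). A sterol element, searched as TCACNCCAC on both strands, was found in 1 of 17 genes of cholesterol synthesis, Hmgcs1. Over all genes with windows it was found in 388 of 27025 (1.44%), and in 1.24% of all windows. The 250 bases before the start of each of these genes are shown with the match in capitals, since they hold the letters by which both groups are known, and the genes were taken because they held a match and not for their values. Ctsd lies on the minus strand at chr7:142387828-142388077, Ctsa on the plus strand at chr2:164833523-164833772, Gla on the minus strand at chrX:134601006-134601255, Mcoln1 on the plus strand at chr8:3500269-3500518 and Hmgcs1 on the plus strand at chr13:119690101-119690350.
Ctsd: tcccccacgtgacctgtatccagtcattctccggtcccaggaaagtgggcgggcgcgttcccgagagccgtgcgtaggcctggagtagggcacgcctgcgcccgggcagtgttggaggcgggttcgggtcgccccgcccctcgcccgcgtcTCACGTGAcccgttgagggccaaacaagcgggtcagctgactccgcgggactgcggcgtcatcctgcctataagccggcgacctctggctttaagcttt
Ctsa: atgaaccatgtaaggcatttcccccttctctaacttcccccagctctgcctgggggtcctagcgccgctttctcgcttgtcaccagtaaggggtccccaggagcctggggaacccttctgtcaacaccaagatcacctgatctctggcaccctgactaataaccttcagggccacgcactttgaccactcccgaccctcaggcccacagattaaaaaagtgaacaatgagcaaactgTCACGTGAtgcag
Gla: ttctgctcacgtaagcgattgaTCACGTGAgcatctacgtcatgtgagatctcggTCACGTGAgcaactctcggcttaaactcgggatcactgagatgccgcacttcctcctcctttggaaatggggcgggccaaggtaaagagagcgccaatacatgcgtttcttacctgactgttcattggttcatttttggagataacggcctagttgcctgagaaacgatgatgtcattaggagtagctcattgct
Mcoln1: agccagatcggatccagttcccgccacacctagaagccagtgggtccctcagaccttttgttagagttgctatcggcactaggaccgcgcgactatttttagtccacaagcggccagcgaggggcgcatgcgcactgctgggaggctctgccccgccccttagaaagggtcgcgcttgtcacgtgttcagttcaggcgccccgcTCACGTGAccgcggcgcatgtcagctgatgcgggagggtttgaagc
Hmgcs1: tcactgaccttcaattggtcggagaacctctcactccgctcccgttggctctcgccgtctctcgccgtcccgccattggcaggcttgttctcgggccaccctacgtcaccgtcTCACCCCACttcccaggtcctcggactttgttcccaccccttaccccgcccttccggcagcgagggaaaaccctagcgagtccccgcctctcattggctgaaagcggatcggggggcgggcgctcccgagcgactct

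The match ended 91 bases before the start in Ctsd, 5 bases in Ctsa, 38 bases in Mcoln1 and 128 bases in Hmgcs1, and Gla held 2 matches, which ended 220 and 187 bases before it. Ctsa (log2 fold change -1.67, adjusted p = 8.26e-06, and -0.94 and no longer called with the trend removed), which protects and activates other lysosomal enzymes, and Gla (alpha-galactosidase A, -1.71, adjusted p = 0.000195) were called lower, as was Hmgcs1 (-1.4, adjusted p = 0.0113), an early enzyme of cholesterol synthesis. The call of Hmgcs1 was lost without untreated mouse 8 (-0.93, adjusted p = 0.0833). Mcoln1, a calcium channel of the lysosomal membrane, did not reach the fold threshold (-0.91, adjusted p = 0.00114), although it did without treated mouse 11 (-1.02) or 12 (-1 when rounded) or untreated mouse 9 (-1.04). The matches describe these letters in the reference only.

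Genes of the SREBP2 pathway, which sense and refill sterol in the endoplasmic reticulum, were lower in 7 of 25 members and higher in 1, shares close to the 25.3% and 16.2% of all genes for the lower calls and under it for the higher ones (median log2 fold change -0.57). With the trend removed 6 were lower and 1 higher (median -0.43), and with total counts 19 and 0. Without untreated mouse 8 the list had 3 members called lower. Tm7sf2, a sterol reductase, was the member that rose, from 173, 96.7 and 97.9 CPM to 333, 307 and 333 CPM.

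Of 12 LXR targets and genes of cholesterol efflux, 6 were called lower and 1 higher, against 25.3% and 16.2% of all genes. With the trend removed the counts were 4 and 2. Without untreated mouse 5, untreated mouse 8 or treated mouse 10, 4 members were called lower. The sterol exporter Abcg1 was at 34.4, 46.4 and 37 CPM in untreated and at 3.3, 4.13 and 3.53 CPM in treated mice (log2 fold change -3.42, SE 0.24, adjusted p = 2.14e-07), near its WT mean of 2.54 CPM. Abca1, which loads cholesterol onto apolipoprotein A-I, was at 81.9, 73.8 and 97 CPM and at 56.5, 66.8 and 61.3 CPM and did not pass the test (adjusted p = 0.234). Nr1h3, which encodes LXR alpha itself, rose from 95.8, 78.4 and 85.1 CPM to 403, 233 and 247 CPM (log2 fold change 1.77, SE 0.31), above the WT mean of 131 CPM.

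De novo lipogenesis genes were called higher in 5 and lower in 3 of 17 members, against 16.2% and 25.3% of all genes (7 and 1 members with the trend removed). Their median log2 fold change was 0.33, which became -0.52 with total counts and 0.8 with the trend removed. Without treated mouse 11 or untreated mouse 9 or 5, 3 members were called higher. Fasn (fatty acid synthase) was at 251, 146 and 315 CPM in untreated and at 135, 139 and 153 CPM in treated mice (log2 fold change -0.74, adjusted p = 0.263) against a WT mean of 802 CPM, and its difference was 0.4 with the trend removed. Acaca (acetyl-CoA carboxylase) fell from 58.8, 37.9 and 59.7 CPM to 15, 19.2 and 24.7 CPM, a call that was lost with the trend removed (-0.79). The phosphatidate phosphatase Lpin1 fell from 68.6, 25.2 and 43.9 CPM to 6.22, 11.5 and 9.2 CPM (log2 fold change -2.35, adjusted p = 0.00891). Me1 (malic enzyme, a source of NADPH) rose from 35.3, 35 and 20.8 CPM to 162, 250 and 416 CPM (log2 fold change 3.18, SE 0.41, adjusted p = 1.79e-05), near its WT mean of 398 CPM.

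Fatty acid oxidation and ketogenesis genes were higher in 16 of 25 members and lower in 1, against 16.2% and 25.3% of all genes (median log2 fold change 1.14). With the trend removed 14 were higher and 0 lower. With total counts 2 were higher and 2 lower (median 0.27), against 679 and 6933 of all 14533 genes (median -1.05). Cpt1a, the gate for fatty acids into mitochondria, was the member called lower, with 149, 74.6 and 123 CPM and 27.8, 65.8 and 74.2 CPM (log2 fold change -1.05, adjusted p = 0.0369), and that call was lost with the trend removed (-0.57, adjusted p = 0.14) and without treated mouse 10 or untreated mouse 8 or 5.

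Bile acid genes were called higher in 11 of 20 members and lower in 1, against 16.2% and 25.3% of all genes. The counts were 7 and 1 with the trend removed, against 12.6% and 21.8% of all genes. With total counts they were 6 and 5, against 679 and 6933 of all 14533 genes. Cyp7b1, of the alternative synthesis pathway and itself male-biased, rose from 10.3, 6.87 and 9.01 CPM to 328, 191 and 531 CPM (log2 fold change 5.33, SE 0.33, adjusted p = 6.83e-08). Cyp8b1, which makes the precursor of cholic acid, rose from 40, 52.1 and 31.5 CPM to 352, 307 and 524 CPM (log2 fold change 3.26, SE 0.4), near its WT mean of 358 CPM. Cyp7a1, the rate-limiting enzyme of the classical pathway, was at 18.7, 71.3 and 39.8 CPM and at 96.3, 64 and 102 CPM and overlapped (adjusted p = 0.221). The organic anion transporter Slco1a4 was the member that fell, from 42.2, 23.6 and 33.7 CPM to 3.11, 6.96 and 4.22 CPM.

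Of 22 drug-metabolising P450 genes 11 were called higher and 0 lower, against 16.2% and 25.3% of all genes. The counts were 8 and 0 with the trend removed, against 12.6% and 21.8% of all genes. With total counts they were 7 and 1, against 679 and 6933 of all 14533 genes. Cyp3a11, the main mouse CYP3A, was at 968, 970 and 569 CPM in untreated and at 4170, 1850 and 1510 CPM in treated mice (log2 fold change 1.59, SE 0.41, adjusted p = 0.00443), above its WT mean of 747 CPM, and its difference did not pass the test with the trend removed (0.74, adjusted p = 0.0646) and was 0.97 without treated mouse 10. Cyp2e1, an ethanol-oxidising P450, was at 2250, 887 and 2130 CPM and at 2350, 2580 and 4320 CPM (adjusted p = 0.0682). Cyp4a14, a target of PPAR alpha, was at 0.35, 0.202 and 0.284 CPM in untreated and at 0, 25.5 and 4.37 CPM in treated mice, so that its call (log2 fold change 5.16, adjusted p = 0.00957) rested on 2 treated mice, with the groups overlapping, and was lost without treated mouse 11 (log2 fold change 3, adjusted p = 0.114).

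All 27 male-biased liver genes were called higher in treated mice, against 16.2% of all genes, with a median log2 fold change of 10. All 27 were also called with the trend removed (median 8.27). With total counts 26 of them were called (median 9.05). The list holds 15 Mup genes, which share reads, so its members are not independent. Elovl3, a fatty acid elongase, was at 0.117, 0.323 and 0.426 CPM in untreated and at 346, 357 and 798 CPM in treated mice (log2 fold change 10.72, SE 0.65, adjusted p = 6.83e-08), with a WT mean of 892 CPM. Mup20 (darcin, a urinary pheromone protein) was at 1520, 372 and 361 CPM and at 152000, 58700 and 76800 CPM, above its WT mean of 20000 CPM. The fatty acid hydroxylase Cyp4a12a was at 6.29, 0.404 and 1.99 CPM and at 11.8, 87.2 and 146 CPM, and its near copy Cyp4a12b at 2.21, 0.162 and 1.35 CPM and at 3.6, 22.3 and 50.2 CPM. Treated mouse 10, one of the 2 highest in the Mup genes named above, was the lowest treated mouse for this pair.

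Compared with 25.3% and 16.2% of all genes, 6 of the 12 testable female-biased genes were called lower and 0 higher, also with the trend removed. Their median log2 fold change was -3.39, or -1.38 with the 5 members at the detection limit in treated mice set to their bounds. The transporter Slc22a26 was at 14.4, 5.7 and 41.3 CPM and at 0, 0.163 and 0.153 CPM, which is at least 89.7-fold lower. Cyp2b9, a female-biased P450, was at 0.311, 0.242 and 0.284 CPM and had no read in the treated mice, which did not pass the test (adjusted p = 0.124). The WT mean of Slc22a26 was 0.101 CPM, in the range of the treated mice.

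The sex bias of the mouse liver is set by the pattern of growth hormone release. Of 13 genes of the growth hormone and IGF1 axis 3 were called higher and 0 lower, against 16.2% and 25.3% of all genes. With the trend removed the counts were 4 and 2. The growth hormone receptor Ghr rose from 172, 121 and 150 CPM to 510, 414 and 569 CPM (log2 fold change 1.75, SE 0.23, adjusted p = 2.39e-05), with a WT mean of 540 CPM. Igfbp2, a binding protein of IGF1, rose from 182, 201 and 93 CPM to 588, 991 and 591 CPM (log2 fold change 2.19). Igf1 itself was at 435, 234 and 597 CPM and at 554, 668 and 687 CPM (log2 fold change 0.59, adjusted p = 0.083), and its difference turned to -1.07 with the trend removed (adjusted p = 0.0159) and to -0.27 with total counts.

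Compared with 16.2% and 25.3% of all genes, nuclear genes of the respiratory chain were called higher in 30 of 42 members and lower in 0. The members had a median log2 fold change of 1.36. These are short transcripts, with a median length of 606 bases, at the end of the length trend that was higher in treated mice. With the trend removed 14 were called higher and 1 lower (median 0.8), against 12.6% and 21.8% of all genes. With total counts 7 were called higher, against 679 of all 14533 genes. Ndufb8, a small subunit of complex I, was at 103, 145 and 80.8 CPM in untreated and at 1360, 501 and 507 CPM in treated mice (log2 fold change 2.85, SE 0.56, adjusted p = 0.000558), above its WT mean of 178 CPM. Cox4i1, a subunit of cytochrome c oxidase, was at 588, 678 and 525 CPM and at 3070, 1890 and 1990 CPM, also above WT (738 CPM). Ndufs1, the large iron-sulfur subunit of complex I, rose to just under the WT range, with 50.2, 54.4 and 36 CPM and 89.9, 98.6 and 96.3 CPM against 106, 99 and 118 CPM in WT mice (mean 108 CPM). Its log2 fold change of 1.02 was 0.58 with the trend removed and 0.86 to 0.99 without treated mouse 11 or 12 or untreated mouse 5. The summed level of the list was 6730 to 8340 CPM in untreated, 19000 to 25600 CPM in treated and 10200 to 13600 CPM in WT mice, and treated mouse 10, which had the steepest trend with length (1.41), was the highest. Of the 42 genes 15 were called higher in treated than in WT mice, against 13.6% of all genes.

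Subunits that the mitochondrial genome encodes did not go with the nuclear ones. Compared with 16.2% and 25.3% of all genes, 1 of 13 such genes was called higher and 0 lower, with a median log2 fold change of -0.24. With the trend removed 0 of the 13 were called higher and 11 lower (median -2.06). Their median GC content was 37.1%, near the low end of all genes. mt-Co1, the catalytic subunit of cytochrome c oxidase, was at 8380, 5400 and 12600 CPM in untreated and at 6140, 8080 and 14800 CPM in treated mice (log2 fold change 0.14, adjusted p = 0.778). mt-Nd1, of complex I, was at 3590, 2230 and 5410 CPM and at 1090, 2550 and 3240 CPM (log2 fold change -0.71, adjusted p = 0.116, and -1.08 with adjusted p = 0.0386 without treated mouse 12). The member called higher was mt-Nd3, at 284, 206 and 363 CPM and at 803, 826 and 986 CPM, and its difference was -0.68 with the trend removed. The sum of the 13 genes was 21700 to 55700 CPM in untreated, 26100 to 53900 CPM in treated and 57300 to 77800 CPM in WT mice. Of the 13 genes 6 were called lower in treated than in WT mice, against 12% of all genes. The methods of the study do not say how RNA was selected for the libraries. Libraries of polyA RNA would hold these transcripts in part only, so levels between nuclear and mitochondrial genes were not compared.

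TCA cycle genes were called higher in 6 and lower in 1 of 19 members, against 16.2% and 25.3% of all genes. With the trend removed the counts were 3 and 0. Suclg1, a subunit of succinyl-CoA ligase, rose from 107, 105 and 57.7 CPM to 372, 333 and 345 CPM (log2 fold change 1.96, SE 0.29, adjusted p = 5.34e-05). Cs (citrate synthase) was at 93.1, 92.5 and 97.3 CPM and at 82, 86.6 and 117 CPM (log2 fold change 0.01, SE 0.21, adjusted p = 0.967), and Pdha1, of the pyruvate dehydrogenase complex, at 70.4, 58.4 and 59 CPM and at 57.8, 73.9 and 89.2 CPM (adjusted p = 0.35). Ogdh, the core of the oxoglutarate dehydrogenase complex, was called lower, at 110, 78.6 and 114 CPM and at 22.4, 58.5 and 64 CPM. The call of Ogdh was lost with the trend removed (-0.58, adjusted p = 0.091) and without treated mouse 10 or untreated mouse 8 or 5.

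Urea cycle and amino acid catabolism genes were called higher in 17 of 26 members and lower in 0, against 16.2% and 25.3% of all genes. The median log2 fold change of the list was 1.15. The counts were also 17 and 0 with the trend removed (median 1.36). With total counts they were 6 and 3 (median 0.28), against 679 and 6933 of all 14533 genes (median -1.05). Cps1, the entry enzyme of the urea cycle, was at 1260, 1100 and 761 CPM in untreated and at 3820, 3110 and 2870 CPM in treated mice (log2 fold change 1.65, SE 0.32, adjusted p = 0.000565), with a WT mean of 2840 CPM. Ass1, a later enzyme of the cycle, was at 2630, 2670 and 1770 CPM and at 6560, 7890 and 6690 CPM. Tdo2, the first enzyme of tryptophan breakdown, had the largest difference of the list, from 297, 293 and 200 CPM to 1710, 1950 and 1870 CPM (log2 fold change 2.81, SE 0.31, adjusted p = 5.67e-06). The treated mice lay far above the untreated mice for all 3 of these genes.

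Of 20 hepatocyte identity genes 4 were called higher and 1 lower, the former near the 16.2% and the latter under the 25.3% of all genes. The counts were 2 and 2 with the trend removed. With total counts they were 1 and 8, against 679 and 6933 of all 14533 genes. Their median log2 fold change was 0.22 (0.3 with the trend removed and -0.62 with total counts). Afm, a vitamin E binding plasma protein, rose from 74, 71.7 and 56 CPM to 224, 316 and 236 CPM, around its WT mean of 242 CPM. Hnf4a, the nuclear receptor that maintains hepatocyte fate, was the member called lower, at 256, 178 and 285 CPM and at 72, 133 and 145 CPM (log2 fold change -1.04, SE 0.31, adjusted p = 0.00968). Its difference was -0.02 with the trend removed, and the fold change was -0.82, -0.99 and -0.89 without treated mouse 10, untreated mouse 8 or untreated mouse 5.

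Compared with 25.3% and 16.2% of all genes, collagen and stellate cell genes were lower in 16 of 23 members and higher in 1. The members had a median log2 fold change of -2.06. These are long, GC-rich transcripts (median 2962 bases and 54.3% GC), and with the trend removed 11 were called lower and 1 higher (median -0.96). Col1a1, the main fibrillar collagen, was at 113, 175 and 177 CPM in untreated and at 55.8, 11.2 and 11 CPM in treated mice (log2 fold change -2.58, SE 0.59, adjusted p = 0.0017), and the call was lost with the trend removed (-0.67, adjusted p = 0.367). Col3a1 was at 171, 326 and 128 CPM and at 267, 115 and 45 CPM, which overlap (adjusted p = 0.361, and 0.0255 with a log2 fold change of -1.41 without treated mouse 10). Treated mouse 10 was the highest of the treated mice for both collagens. Acta2, the actin of activated stellate cells, was at 6.56, 12.4 and 4.22 CPM and at 17.9, 5.81 and 2.99 CPM (adjusted p = 0.785). Mmp2, a gelatinase, was clearly separated, at 26.6, 54.7 and 20.2 CPM and at 2.91, 1.74 and 1.53 CPM (log2 fold change -4.06, SE 0.49, adjusted p = 1.01e-05). Lrat, which stores retinol in quiescent stellate cells, was the member that rose, from 4.78, 3.96 and 2.31 CPM to 12.9, 10.2 and 18.7 CPM. Treated mice were called higher than WT mice for 12 of the 23 genes, against 13.6% of all genes. Among the 12 was Col1a1, with a WT mean of 3.61 CPM.

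Ductular and cholangiocyte genes were lower in 7 of 12 members and higher in 0, against 25.3% and 16.2% of all genes. These counts were the same with the trend removed. Epcam was at 5.48, 6.47 and 2.84 CPM in untreated and at 1.17, 2.45 and 1.53 CPM in treated mice (log2 fold change -1.49, SE 0.4, adjusted p = 0.00521), and the keratin Krt19 at 1.63, 1.86 and 1.45 CPM and at 0.194, 0.706 and 0.997 CPM (adjusted p = 0.0843). Of 14 sinusoidal endothelial genes 5 were called higher and 3 lower, against 16.2% and 25.3% of all genes. The counts were 5 and 1 with the trend removed and 2 and 6 with total counts. The lectin Clec4g rose from 12, 18.4 and 8.94 CPM to 112, 48.8 and 72.4 CPM (log2 fold change 2.57, adjusted p = 0.000168), while the scavenger receptor Stab2 was at 19.4, 12.4 and 30.8 CPM and at 8.16, 9.13 and 11.3 CPM and the Fc receptor Fcgr2b at 72.3, 47.9 and 64.1 CPM and at 29.1, 22 and 22.2 CPM, both called lower. The call of Stab2 was lost with the trend removed (-0.51, adjusted p = 0.0579) and without untreated mouse 5 (-0.74). Lyve1, a hyaluronan receptor, was at 11.1, 13.7 and 12.3 CPM and at 18.3, 20.2 and 12 CPM (adjusted p = 0.376).

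Cell cycle genes were lower in 12 of 21 members and higher in 0, against 25.3% and 16.2% of all genes. With the trend removed the counts were 13 and 0. Mki67, a marker of dividing cells, was at 5.63, 19.6 and 5.54 CPM in untreated and at 1.75, 1.79 and 0.997 CPM in treated mice (log2 fold change -2.75, SE 0.86, adjusted p = 0.0131), and the topoisomerase Top2a at 5.2, 28 and 4.44 CPM and at 2.04, 2.61 and 1.69 CPM. Untreated mouse 9, the highest mouse for the neutrophil genes S100a8 and S100a9, was also the highest here. Without it 4 of the 21 were called lower (7 without treated mouse 12), and neither Mki67 (adjusted p = 0.0764) nor Top2a (adjusted p = 0.158) was. Their summed level was 156 to 511 CPM in untreated and 129 to 153 CPM in treated mice.

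Acute phase genes were lower in 7 of 19 members and higher in 0, against 25.3% and 16.2% of all genes. With the trend removed the counts were 10 and 0, and 4 were called lower without untreated mouse 5. Hp (haptoglobin) was at 13400, 10400 and 17000 CPM in untreated and at 5590, 6110 and 5860 CPM in treated mice (log2 fold change -1.22, SE 0.39, adjusted p = 0.0158), above its WT mean of 2380 CPM, and without untreated mouse 5 its adjusted p was 0.0612. Saa1 (serum amyloid A) ranged widely in both groups, with 1140, 120 and 2720 CPM and 1200, 266 and 235 CPM (adjusted p = 0.396). Of 23 stress response genes 5 were called higher and 7 lower, near the shares of all genes, and 6 and 6 with the trend removed. The chaperone of the endoplasmic reticulum Hspa5 rose from 804, 872 and 482 CPM to 2830, 1890 and 1820 CPM (log2 fold change 1.6, SE 0.33), and its co-chaperone Dnajb9 from 42.1, 53.6 and 28.7 CPM to 381, 114 and 75.1 CPM, while the extracellular glutathione peroxidase Gpx3 fell from 250, 423 and 319 CPM to 11.8, 21.4 and 9.51 CPM (log2 fold change -4.53, SE 0.41, adjusted p = 8.59e-07). Ddit3 (CHOP) was at 13.5, 17.6 and 19.3 CPM and at 15.8, 9.35 and 8.2 CPM (adjusted p = 0.447).

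Of 8 haemoglobin and erythroid genes 1 was called higher and 1 lower, against 16.2% and 25.3% of all genes. The counts were the same with the trend removed (0 lower in 5 of the 6 fits that leave out a mouse). The member called higher was Alas2, the erythroid enzyme of haem synthesis, which rose from 17.2, 12.2 and 13.6 CPM to 108, 127 and 155 CPM, around its WT mean of 151 CPM. The globins Hba-a1 (adjusted p = 0.879) and Hbb-bs (adjusted p = 0.347) did not pass the test. Of 16 circadian clock genes 1 was called higher and 4 lower, the former under the 16.2% and the latter near the 25.3% of all genes. With the trend removed 1 was called higher and 1 lower. The number called lower was 2 without treated mouse 10 or 12 or untreated mouse 8, and 1 without untreated mouse 5. Dbp, an output gene with a strong daily rhythm, was at 17, 13.7 and 6.07 CPM and at 1.85, 0.978 and 1.92 CPM, with a WT mean of 1.06 CPM, and Nfil3, its opponent at the same sites, at 24.5, 28.4 and 24.8 CPM and at 69.2, 89.3 and 73.6 CPM. The core clock gene Bmal1, listed as Arntl, was at 9.59, 8.61 and 10.6 CPM and at 7.19, 14 and 11 CPM (adjusted p = 0.694). The hour of tissue collection was not given in the sources used here.

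The 34-weeks mice allow a test of whether the treatment difference had the same size later, with other mice in both arms. At 34-weeks 12.8% of the genes were called higher and 18.6% lower in treated against untreated mice, and 10.9% and 16.1% without untreated mouse 4. The difference between the 2 time points was itself called in 477 genes, 69 (0.475%) in which the value at 12-weeks was the higher one and 408 (2.81%) in which it was the lower one. This count was unstable. Leaving out any 1 of the 12 mice moved it by over 1.5 times, with 123, 79 and 1572 genes without treated mouse 10, 11 or 12 of 12-weeks, 9, 1 and 1337 without untreated mouse 5, 8 or 9, and 1 to 1019 without a mouse of 34-weeks. It was 1934 with DESeq2. Without untreated mouse 4 of 34-weeks, the library with no Ddx3y reads, 1 of the 477 genes was still called. All 477 kept the sign of the difference, and their median adjusted p was 0.106 (edgeR). The 15 of them that are named in the text had adjusted p values of 0.0946 to 0.111 in that fit, so the differences between time points below were called only with this mouse included. The loss of calls was not particular to untreated mouse 4. The count was also 1 without untreated mouse 8 of 12-weeks and 1 without treated mouse 11 of 34-weeks. The code that opens the library names differs between the time points as well (22-106 at 34-weeks). Time and whatever this code stands for cannot be told apart.

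With all 12 mice, the SREBP2 pathway had 6 and de novo lipogenesis 5 members with a lower treatment difference at 12-weeks. The median log2 fold change of the SREBP2 genes was -0.57 at 12-weeks and 0.97 at 34-weeks, and that of lipogenesis genes 0.33 and 2.31. Without untreated mouse 4 the medians at 34-weeks were 0.8 and 2.19, and no member of either list was called for the difference. Fasn was at 251, 146 and 315 CPM without and at 135, 139 and 153 CPM with treatment at 12-weeks (log2 fold change -0.74), and its log2 fold change at 34-weeks was 2.73 (2.59 without untreated mouse 4). The difference between both was -3.46 (adjusted p = 0.0391) and stayed called with the trend removed (-2.6, adjusted p = 0.0416), but not without untreated mouse 4 (-3.32, adjusted p = 0.106). Collagen and stellate cell genes had 5 members with a higher value of the treatment difference at 12-weeks, and 0 without untreated mouse 4. Col3a1 had a log2 fold change of -0.55 at 12-weeks and -3.9 at 34-weeks (-3.56 without untreated mouse 4; difference 3.36, SE 0.72, adjusted p = 0.0362, and 3.01 with adjusted p = 0.104 without untreated mouse 4).

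**Figure D4:**
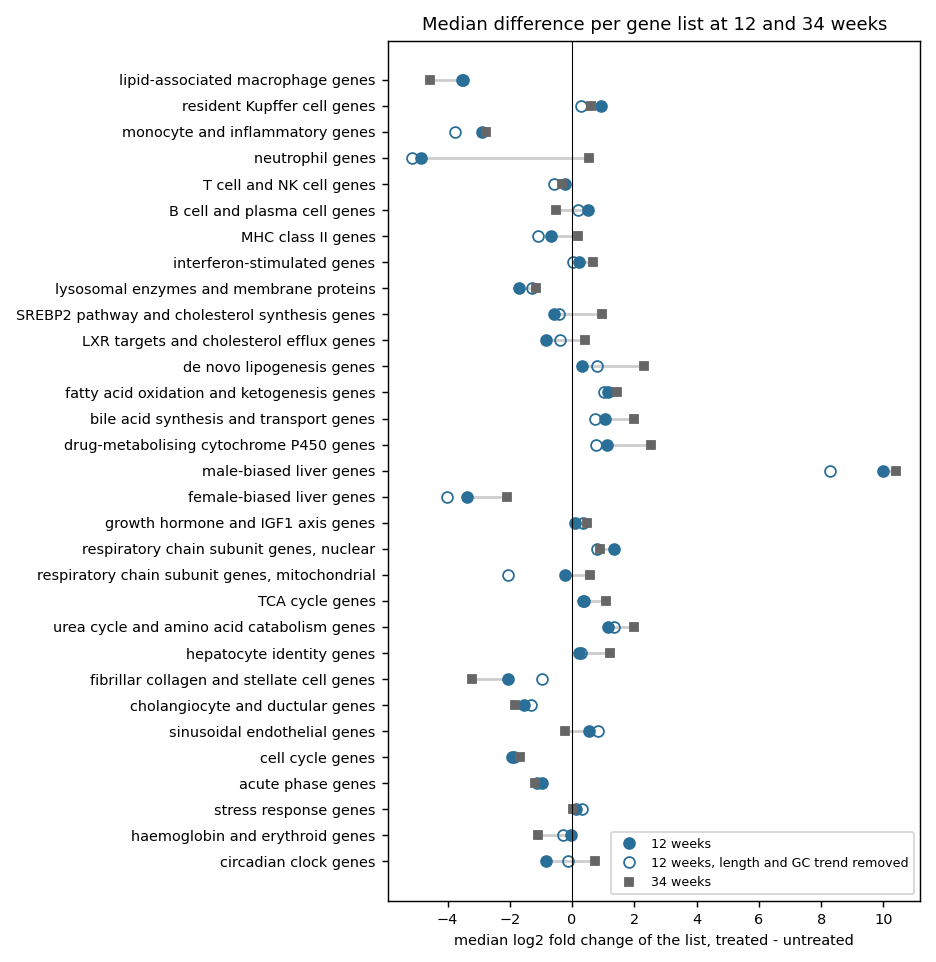
Median log2 fold change between treated and untreated Lipa-/- mice (horizontal axis) of the members of each gene list at 12-weeks (filled circles), at 12-weeks with the length and GC trend removed (open circles) and at 34-weeks (squares). The medians of lipogenesis genes lie at 0.33 and 2.31 and those of neutrophil genes at -4.86 and 0.53, while lipid-associated macrophage genes are low at both time points (-3.49 and -4.57). Without untreated mouse 4 of 34-weeks the 3 squares lie at 2.19, 0.95 and -4.49. Treated mouse 12 of 34-weeks stood apart from the other treated mice in the neutrophil genes S100a8, Ngp and Ltf. S100a8 was at 0.929, 226 and 0.772 CPM in treated mice 11, 12 and 9 of 34-weeks. In untreated mice 4, 5 and 6 of 34-weeks it was at 99.7, 42.5 and 55.6 CPM.

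The strongest gene with a higher value at 12-weeks was Tff3 (trefoil factor 3, a mucosal repair peptide). It was at 18.7, 9.29 and 8.09 CPM in untreated and at 568, 853 and 159 CPM in treated mice of 12-weeks (log2 fold change 5.45, SE 0.98, adjusted p = 0.000289), far above its WT mean of 8.03 CPM, whereas the log2 fold change at 34-weeks was -0.99, or -1.3 without untreated mouse 4 (difference 6.45, adjusted p = 0.0288, and 6.75 with adjusted p = 0.0946 without untreated mouse 4). Saa3, an amyloid protein of macrophages, and Fam180a were the other two genes of the naming rule beside Col3a1, and their treated mice stayed at 45 to 147 CPM and 1.69 to 12 CPM, against WT means of 3.73 and 0.646 CPM. On the other side stood Cyp4a12a, Cyp4a12b, Gm5641 and Chrna4, a subunit of the nicotinic acetylcholine receptor. Cyp4a12a had risen at both time points, with a log2 fold change of 4.82 at 12-weeks and 12.18 at 34-weeks, or 12.09 without untreated mouse 4 (difference -7.36, adjusted p = 0.0391, and -7.28 with adjusted p = 0.106 without untreated mouse 4). Untreated mice of 34-weeks held it at 0.0315, 0 and 0.0735 CPM, under the worth of 3 reads (0.0946 to 0.116 CPM), and treated mice at 283, 84.8 and 201 CPM. The untreated mean at 12-weeks was 2.89 CPM. The sizes of 12.18 and of the difference are therefore uncertain. Chrna4 had fallen at 12-weeks, from 12, 3.64 and 10.9 CPM to 0.194, 3.31 and 1.76 CPM, and its log2 fold change at 34-weeks was 2.01 (adjusted p = 0.0311), or 1.88 and no longer called without untreated mouse 4 (adjusted p = 0.103). The fall of Chrna4 was not called with the trend removed (-1.25, adjusted p = 0.124), nor without treated mouse 10 or 12 or untreated mouse 8 or 5.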

How the data were processed

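Reads were assigned by the authors with Salmon to mouse transcripts of GRCm39, and tximport gave gene tables. The authors deposited estimated counts, not scaled for depth or length, TPM values computed within each library, and effective transcript lengths in bases. A further deposited table holds log2 fold changes and p values of the authors' comparisons by DESeq2 1.40.1 in R 4.3.0 and was not used.

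Estimated counts were rounded, scaled by TMM and fitted with edgeR 4.0.16 (glmQLFit, glmQLFTest, R 4.3.3) over all 18 libraries with 6 group means, for genes with more than 100 reads in sum. Tests were two-sided. No label says whether libraries of a group came from separate litters or extractions, beyond the mouse number. Lengths came from the deposited table and GC content from an annotation of GRCm39 (98.4% of tested genes had both). For trend removal, log2 CPM of each mouse relative to the mean over mice was fitted with splines on length and GC content, and used as offsets. Genes without a GC value kept a trend of 0. This and the fit without untreated mouse 4 of 34-weeks at each 34-weeks value were chosen after seeing the data. Alternatives were DESeq2 1.42.0, limma 3.58.1 on log2(TPM + 1) and log2(TPM + 0.1), other scalings, filters and thresholds, and each mouse left out. The methods were tested on simulated data.

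The comparison, the 31 gene lists and the naming rule were chosen with earlier results of these data known. Named were hLIPA and Lipa, the first 2 members of each list and its called member with the largest absolute log2 fold change per direction (mean of at least 1 CPM), the top 8 called genes per direction without overlap and the top 4 per direction for the difference between time points (both at least 10 CPM). The 4 further genes with a promoter match were named for the match. Some genes that met the rule are not reported here. Protein, lipid and histology data were not analysed here.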

Additional observations from a re-analysis of the deposited data

Results flagged for a closer look

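The treatment difference at 12-weeks differed from that at 34-weeks, by the test of the difference itself in edgeR, in the genes that follow. Values are the log2 difference at 12-weeks minus that at 34-weeks. It was positive for Tff3 (6.45), Saa3 (3.88), Col3a1 (3.36), Fam180a (3.14) and Lyve1 (2.37). It was negative for Cyp4a12a (-7.36), Gm5641 (-5.71), Cyp4a12b (-4.96), Chrna4 (-4.26), Fasn (-3.46), Acaca (-2.42), Hmgcs1 (-2.25), Laptm5 (-2.14), Cyp2e1 (-2.09) and Hnf4a (-1.9). Adjusted p values lay between 0.0277 and 0.05. All of them were also called with the length and GC trend removed, with Tff3 at 5.58, Cyp4a12a at -7.42, Fasn at -2.6 and Hnf4a at -1.27. Each was called in 2 to 6 of the 12 fits that leave out a mouse, so none held in all of them. Without untreated mouse 4 of 34-weeks, which had no read of the Y-linked genes Ddx3y and Eif2s3y, 0 of the 15 were called (adjusted p = 0.0946 to 0.111 by edgeR), with the sign kept in each. Cyp4a12a and Cyp4a12b are near-identical copies, and how reads were split between them is uncertain. All untreated mice of 34-weeks held Cyp4a12a under the worth of 3 reads, so the size of its difference is uncertain as well. Groups of 3 mice are too small for a test of single outlying mice.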

How the results depend on the processing

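No paired analysis was possible because treated and untreated mice of 12-weeks share no mouse number. The total of 6027 calls stayed within 1.5 times under every alternative run. Scaling by total counts gave 679 genes called higher and 6933 lower, limma on log2(TPM + 1) gave 362 higher (5161 lower), and log2(TPM + 0.1) gave 453 higher and 7458 lower. TPM and total counts carry no TMM scaling, and the median of all genes was -1.05 with total counts, -0.67 with log2(TPM + 1) and -1.11 with log2(TPM + 0.1). The 477 genes that differed between time points became 1934 with DESeq2, 1107 with total counts, 69 with only the 12 Lipa-/- mice and 1 to 1572 with a mouse left out. An unadjusted p under 0.05 was found for 4402 genes, and for 3789 without untreated mouse 4 of 34-weeks, where 1 gene was called. Named genes that turned sign with total counts were Acta2 (-0.74), Alb (-0.03), Arntl (-0.67), Cs (-0.87), Cyp2e1 (-0.06), Hbb-bs (-0.02), Igf1 (-0.27), Irf7 (-0.65), Lipa (-0.43), Lyve1 (-0.41), Pdha1 (-0.63) and mt-Co1 (-0.74). With log2(TPM + 1) and log2(TPM + 0.1) these were Acta2 (-0.84 and -1.13), Alb (-0.33 and -0.33), Arntl (-0.7 and -0.92), Cd79a (-0.09 and -0.41), Cs (-1.1 and -1.14), Cyp2e1 (-0.26 and -0.26), Cyp7a1 (-0.12 and -0.12), Hbb-bs (-0.29 and -0.29), Igf1 (-0.26 and -0.26), Irf7 (-0.87 and -0.92), Isg15 (-0.16 and -0.16), Lipa (-0.59 and -0.65), Lyve1 (-0.57 and -0.7), Mx2 (-0.05 and -0.06), Ndufs1 (-0.01 and -0.01), Pdha1 (-0.86 and -0.91) and mt-Co1 (-1.02 and -1.02). With the length and GC trend removed they were Acta2 (-0.09), Col3a1 (0.34), Fasn (0.4), Hbb-bs (-0.22), Igf1 (-1.07), mt-Co1 (-1.23) and mt-Nd3 (-0.68). Cs, whose log2 fold change was 0.01, was -0.08 with upper quartile factors, -0.02 with no filter and -0.02 with length offsets. With each mouse left out in turn, Acta2 ranged from -0.83 to 0.71, Arntl from -0.07 to 0.35, Cs from -0.19 to 0.07, Hba-a1 from -0.5 to 0.28 and mt-Co1 from -0.34 to 0.49. Of the other values for named genes, 1638 kept direction and side of the threshold, 111 lost their call and 74 gained one. Of the counts of called list members, 494 stayed within 1.5 times the main count, 90 were smaller and 28 larger by more than that. Depth limits genes under 0.106 to 0.291 CPM, the worth of 3 reads per mouse, and effects of treatment and of the length and GC trend cannot be told apart in these mice.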
